A study of Mus musculus with 3 samples.

Results

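The genes described here encode the subunits, assembly factors and regulators of the constitutive proteasome, the protease that degrades ubiquitin-tagged proteins in the cytoplasm and nucleus. They were taken by symbol: every gene named Psma to Psmg followed by a number and holding at least 1 protein-coding transcript, except Psmb8, Psmb9, Psmb10, Psme1 and Psme2, which belong to the interferon-inducible immunoproteasome. This gave 43 genes of 55450 annotated genes, of which 21901 have a protein-coding transcript. The rule uses names and transcript types and no measured value.

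The RNA came from the chromatin fraction of primary macrophages grown from the bone marrow of C57BL/6J mice, and ribosomal RNA was depleted before sequencing. The cells of the only group had received Lipid A, the membrane anchor of bacterial lipopolysaccharide and the ligand of TLR4, for 12 h at 100 ng/ml. After a washout of 12 h they met the same dose, 100 ng/ml, again for 15 min. The group holds 3 libraries, made from 1000, 250 and 500 ng of RNA in replicates 1, 2 and 3. No untreated, singly stimulated or cytoplasmic group was analysed here, so no effect of Lipid A can be read from these values. The labels give 1 donor identifier for all 3 libraries and do not say whether separate animals were used, so the spread between libraries may be partly technical.

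The macrophage label matched its markers. All 7 macrophage markers were detected, with Adgre1, the gene of F4/80, at 335, 382 and 272 TPM (a length-scaled share of all RNA in the table) in replicates 1, 2 and 3. The median level of the 5 neutrophil, 4 T cell, 4 B cell and 4 stromal markers was 0.03, 0.02, 0.08 and 0.31 on the log2(TPM + 1) scale. In the read-based table the T cell median was 1.55, with Cd3d at 12.4, 16.9 and 16.2 TPM where the alignments gave it 0, 1 and 0 counts. The stromal gene Col1a1 had 1, 38 and 47 counts in replicates 1, 2 and 3. Of the 4 erythroid markers, Alas2 stood at 11.9, 8.44 and 11.0 TPM, while Hba-a1 was listed at 0 in each library. Total expected counts were 14609979, 17423948 and 24162551, of which the proteasome genes held 17732, 19689 and 25945, or 0.123, 0.114 and 0.108% of the counts on genes. In bulk libraries, fewer cells making a transcript and less RNA per cell cannot be told apart.

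The proteasome is built from a barrel and a cap. The barrel, called the 20S core, stacks outer rings of alpha subunits, which gate the entry, on inner rings of beta subunits, of which Psmb5, Psmb6 and Psmb7 carry the active sites. The cap, the 19S particle, binds and removes ubiquitin, unfolds the substrate with a ring of ATPases and threads it into the barrel. In cells exposed to interferon, newly built barrels can take Psmb8, Psmb9 and Psmb10 in place of the constitutive catalytic subunits. Peptides made by either form are presented on MHC class I, and the proteasome also degrades the IkB inhibitors that hold NF-kB inactive.

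Much of the RNA counted for these genes was assigned to transcripts annotated with a retained intron. Unspliced precursors of the coding transcript would hold the same intron sequence. Precursor reads in this chromatin RNA were not told apart from such transcripts. The exon borders below show sequence that such a transcript holds and the spliced coding one lacks. They are from the 5 genes with the highest share of TPM in retained-intron transcripts in the alignment-based table. Each line is read 5′ to 3′ on the gene's strand from the GENCODE M21 transcript (mm10), with 8 exonic and 18 intronic bases around 1 border of an intron of the gene's highest coding transcript. Capitals mark the first 6 bases of the intron at a 5′ splice site, or its last 2 bases at a 3′ splice site. All 5 introns lie between coding exons.
Psmb7-202, intron 6, 5′ splice site (chr2:38613414-38613439, minus strand): atatggagGTATGTaagctcctgcag
Psmb3-203, intron 3, 5′ splice site (chr11:97706898-97706923, plus strand): gagaagcgGTGAGTgggaataaagac
Psmb6-202, intron 4, 3′ splice site (chr11:70527161-70527186, plus strand): ccccctcccatctggcAGgtgtactc
Psmf1-203, intron 4, 5′ splice site (chr2:151729473-151729498, minus strand): cctgcttgGTAAGTatggagtcccca
Psmd6-202, intron 2, 3′ splice site (chr14:14116963-14116988, minus strand): tgatcttgaatttgacAGgaaggagc

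In the spliced coding transcript these borders are joined exon to exon, whereas in the retained-intron transcript an exon runs across them unspliced. Over the 28 proteasome genes with an annotated retained-intron transcript, the one with the highest TPM crossed at least 1 such border in all 28. This follows largely from the annotation class and is no result about these genes. The retained-intron transcript held a whole intron of the coding transcript in 7 of them (Psma3, Psmc2, Psmc4, Psmd3, Psmd4, Psmd5 and Psmg3). In the other 21 an exon began or ended inside the intron, so these models hold only part of it. A median of 63.4% of the bases of these transcripts was intronic, from 7.50% in Psma3-203 to 94.5% in Psmd1-209. All 25 of the crossed 5′ borders outside chromosome 18 began with GT, and all 20 of the 3′ borders ended with AG. Both are the usual ends of introns, and neither count was set beside other genes.

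Most of the genes were detected. A mean expected count of at least 10 was reached by 41 of 43, against 53.5% of all genes with a protein-coding transcript. A mean of at least 10 TPM was reached by 31 of 43, against 26.6% of them. The median level of the 43 genes was 4.40, 4.30 and 4.52 in replicates 1, 2 and 3 (log2(TPM + 1)), a mean of 4.41 ± 0.11 (SD, n = 3). The median over all genes with a protein-coding transcript was 0.80, and over the 11724 detected ones 3.44. The order of the 41 detected genes was nearly the same in each library, with Spearman's rho of 0.98 to 0.99 between libraries, a description over genes that share their libraries. Mean TPM was also higher in genes with more annotated transcripts (rho 0.62 over the 41 genes), but showed little relation to the length of the gene (rho -0.02). How far the order of levels below depends on the annotation was not tested.

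**Figure D1:**
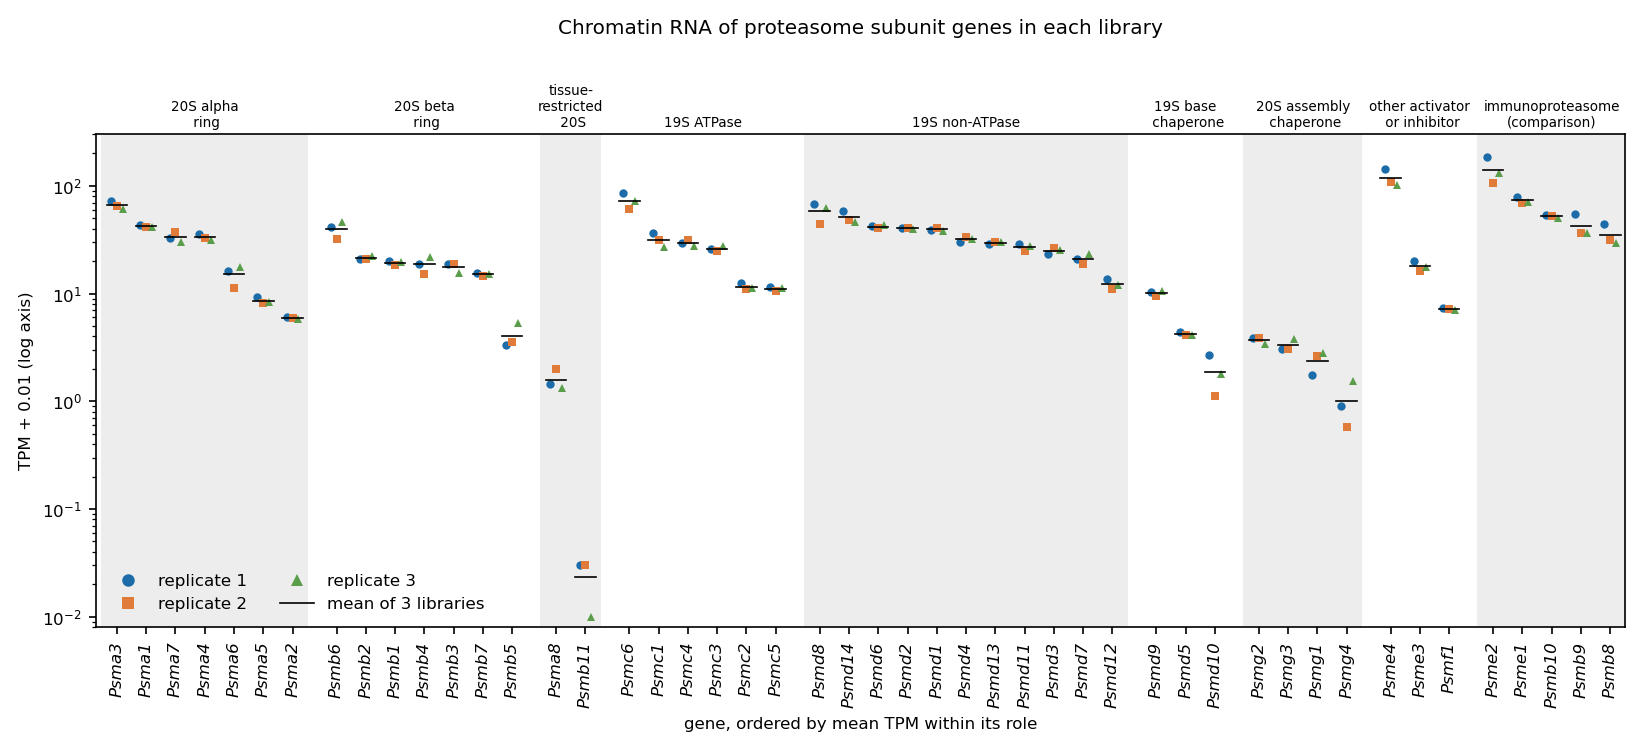
TPM (plus 0.01, log axis) of each of the 43 proteasome genes and of 5 immunoproteasome genes in replicates 1, 2 and 3, grouped by role, with a line at the mean. Psme4 stands at 101 to 144 TPM above all other constitutive genes, Psmb5 at 3.29 to 5.33 TPM lies below the rest of its ring, and Psmb11 is at or near 0.

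In the alpha ring the median level was 5.04 ± 0.07 (log2(TPM + 1), SD, n = 3) over 7 genes, all detected. Psma3 was the highest, at 71.9, 65.2 and 60.7 TPM in replicates 1, 2 and 3. Psma2 was the lowest, at 6.07, 5.96 and 5.78 TPM, with 205 to 306 counts. The mean of Psma3 was 11.1 times that of Psma2, and their values did not overlap. Psma1 (42.2 ± 1.4 TPM), Psma4 (33.3 ± 2.1) and Psma7 (33.4 ± 3.5) lay between 30 and 44 TPM in each library, and Psma6 (15.1 ± 3.3) and Psma5 (8.61 ± 0.66) were lower.

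In the beta ring the median was 4.32 ± 0.04 over 7 genes, again all detected. Psmb6, which carries the caspase-like site, was the highest, with 41.3, 32.4 and 46.2 TPM. Psmb7, which carries the trypsin-like site, had 15.4, 14.7 and 15.2 TPM. Psmb5, which carries the chymotrypsin-like site, was the lowest, at 3.29, 3.55 and 5.33 TPM from 25, 36 and 69 counts. The 3 catalytic genes therefore kept the order Psmb6, Psmb7, Psmb5 in each library, with no overlap between them. The non-catalytic Psmb1, Psmb2, Psmb3 and Psmb4 had means of 19.4, 21.4, 17.7 and 18.7 TPM, and their library values ranged from 15.2 to 22.5 TPM.

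The tissue-restricted barrel subunits were low. Psma8, an alpha subunit known from the testis, had 1.43, 2.00 and 1.32 TPM from 17, 28 and 30 counts. Psmb11, the catalytic subunit of the thymic cortex, had 1, 1 and 0 counts and was not detected. In the read-based table the same gene was given 2.55, 3.02 and 3.06 TPM, all of it on Psmb11-201, so whether it is at 0 depends on the table.

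In the 19S cap, the 6 ATPase genes had a median of 4.84 ± 0.02 and the 11 non-ATPase genes one of 5.05 ± 0.08, and all 17 were detected, each at an average above 10 TPM. Psmc6 led the ATPases with 85.3, 61.2 and 72.7 TPM, and Psmc5 was lowest with 11.5, 10.6 and 11.2 TPM. Psmd8, a lid subunit, led the others with 67.6, 44.0 and 62.4 TPM. Psmd14, the deubiquitinase that cuts ubiquitin chains from substrates, followed with 58.3, 47.7 and 46.6 TPM. Replicate 2 was the lowest library for Psmc6 and Psmd8, and replicate 3 for Psmd14, so the spread of the 3 genes did not follow 1 library. Psmd12 was the lowest of the group at 13.6, 11.0 and 12.0 TPM. The large scaffolds Psmd1 and Psmd2, which dock ubiquitin receptors and shuttles, had 39.4 ± 1.3 and 40.3 ± 0.7 TPM, and the ubiquitin receptor Psmd4 had 32.1 ± 1.8.

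The median of the 14 barrel genes lay 0.57 ± 0.15 below that of the 17 cap genes on the log2(TPM + 1) scale, with differences of -0.58, -0.71 and -0.41 in replicates 1, 2 and 3. The barrel was lower in each library, but in the read-based table the difference shrank to -0.23 ± 0.16.

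By group median, the chaperones that build the particles had the lowest levels apart from the tissue-restricted pair, although Psmb5 lay below Psmd5 by its mean and several barrel genes lay below Psmd9. The cap chaperones Psmd9, Psmd5 and Psmd10 had 10.1 ± 0.6, 4.22 ± 0.12 and 1.86 ± 0.80 TPM. The barrel chaperones Psmg1, Psmg2 and Psmg3, which help to assemble the alpha ring, had 2.37 ± 0.56, 3.72 ± 0.27 and 3.30 ± 0.40 TPM. Psmg4 had 0.90, 0.57 and 1.54 TPM from 3, 2 and 7 counts and was the other gene under the detection threshold. The highest value among the 7 chaperone genes was 10.5 TPM, of Psmd9 in replicate 3, while 11 of 14 barrel genes and 17 of 17 cap genes averaged 10 TPM or more. The related chaperone gene Pomp, whose product is consumed as the barrel matures, stood apart from them at 29.3, 28.8 and 26.6 TPM.

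Among the remaining regulators, Psme4 had the highest level of all 43 genes. It encodes the nuclear activator PA200, which caps the barrel in place of the 19S particle. Its values were 144, 108 and 101 TPM from 4306, 4513 and 5683 counts. The lowest Psme4 value exceeded the highest value of the next gene, Psmc6, which was 85.3 TPM. Psme3, another nuclear activator, had 19.95, 16.3 and 17.7 TPM, and the inhibitor Psmf1 had 7.32, 7.18 and 7.0 TPM. Counting coding transcripts alone, Psme4 remained first, with 57.1 ± 8.7 TPM.

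The catalytic subunits could be set against the immunoproteasome subunits that replace them, by the difference of log2(TPM + 1) within each library. Psmb8 had 44.7, 31.6 and 29.5 TPM, Psmb9 had 55.1, 36.5 and 36.7 TPM, and Psmb10 had 53.5, 52.6 and 49.9 TPM. Psmb5 lay below Psmb8 by -3.41, -2.84 and -2.27, a mean of -2.84 ± 0.57, which is 7.16-fold on this scale. Psmb7 lay below Psmb10 by -1.73, -1.77 and -1.65, a mean of -1.72 ± 0.06 and 3.29-fold. Both differences had 1 sign in 3 of 3 libraries and exceeded their spread between libraries. Psmb6 and Psmb9 differed by -0.41, -0.17 and 0.32, a mean of -0.08 ± 0.37, so the sign varied between libraries. The exact 2-sided sign-flip permutation test over 3 libraries cannot give p under 0.25. It gave 0.25 for Psmb5 and Psmb7 (0.375 after Benjamini-Hochberg adjustment over 3 pairs) and 0.75 for Psmb6.

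The difference between Psmb5 and Psmb8 turned around when coding transcripts alone were counted, an alternative added after the values were seen. Psmb8 held 94.7% ± 1.7 of its TPM in retained-intron transcripts, whereas both annotated transcripts of Psmb5 are coding. The coding transcripts of Psmb8 summed to 1.92, 2.28 and 1.30 TPM, below the 3.29, 3.55 and 5.33 TPM of Psmb5. The coding difference was 0.56, 0.47 and 1.46, a mean of 0.83 ± 0.55, and 0.54 ± 0.49 in the read-based table. The highest transcript of Psmb8, Psmb8-205, holds intron 2 of 190 bases, which the highest coding transcript lacks, and its 5′ border is shown because retained-intron models carry the reversal. How reads were divided between both models was not tested.
Psmb8-205, intron 2, 5′ splice site (chr17:34199373-34199398, plus strand): ttacattaGTGAGTatgtgtgctcca

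Psmb7 stayed below Psmb10 among coding transcripts, by -1.90 ± 0.19 (-1.13 ± 0.12 in the read-based table). The difference between Psmb6 and Psmb9 was -0.11 ± 0.55, smaller than its spread. The order of the constitutive catalytic genes also changed: coding transcripts gave Psmb6 5.84, 4.94 and 9.52 TPM and Psmb7 1.60, 2.19 and 1.94 TPM. Psmb5 thus lay above Psmb7 in each library by coding transcripts and below it in each by all transcripts.

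**Figure D2:**
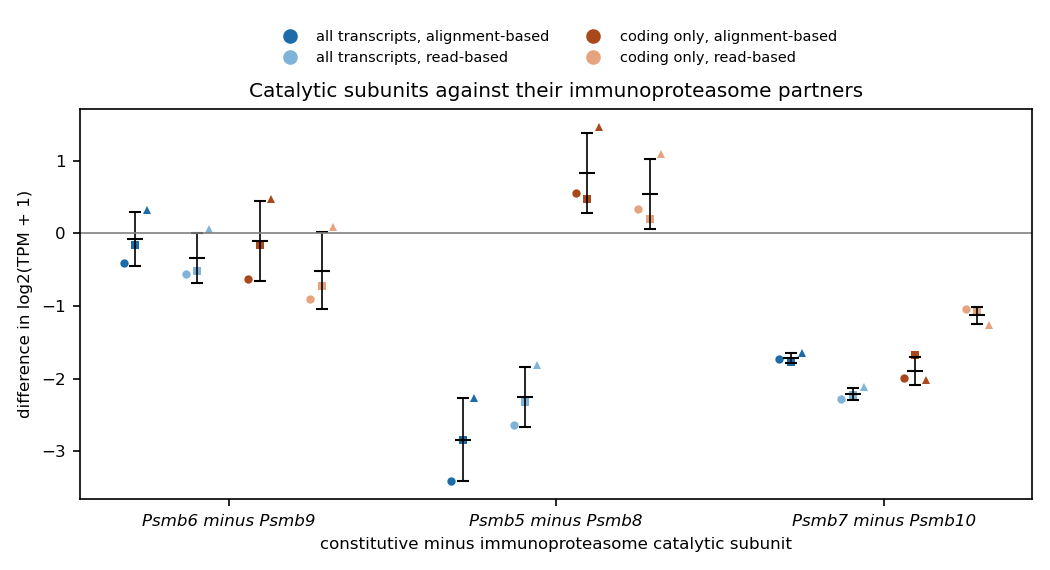
Difference in log2(TPM + 1) between each constitutive catalytic subunit and its immunoproteasome partner, by table and by transcripts counted; circles, squares and triangles are replicates 1, 2 and 3, and black bars the mean and SD. Psmb5 minus Psmb8 is -2.84 over all transcripts and 0.83 over coding ones, while Psmb7 minus Psmb10 is below 0 throughout.

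Retained-intron transcripts took up a median of 54.9, 58.7 and 48% of a gene's TPM over the 28 proteasome genes that have one and reach 1 TPM, a mean of 53.9% ± 5.4 (SD, n = 3). Over 6584 genes chosen in the same way the median was 46.8% ± 1.2. A share of at least 50% was found in 16 of 28, against 44.5% of those genes. Measured by counts, which are not divided by length, the median was 50.2% ± 0.9 for the proteasome genes and 30.1% ± 1.2 for the others. High shares were not particular to the proteasome genes, whose mean shares of TPM ran from 10.2 to 87.3%. Among CCT chaperonin genes with such a transcript they ran from 49.5% (Cct8) to 81.3% (Tcp1). They ran from 30.0% (Cops9) to 94.3% (Cops8) in the COP9 signalosome and from 45.8% (Psmb10) to 94.7% (Psmb8) in the immunoproteasome.

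In the alignment-based table the highest shares were in 3 genes of the beta ring. Psmb7 held 89.6, 85.1 and 87.3% of its TPM in Psmb7-202, Psmb3 held 87.3, 87.1 and 86.1%, and Psmb6 held 85.8, 84.7 and 79.4%. The lid gene Psmd6 had 83.5, 80.3 and 78.3%, and the inhibitor gene Psmf1 had 76.1, 85.7 and 80.4%. All 5 lay above 76% in every library, so their coding transcripts were the minor part of their TPM throughout. At the low end were Psmc1 (7.1 to 13.5%) and Psmd9 (19.9, 20.3 and 28.3%). Psma8 ranged from 0 to 39.9%, on at most 30 counts. The order depended on the table. By reads Psmb4 had the highest mean share, 87.1%, followed by Psmd6 at 81.5%, Psmc4 at 79.8% and Psmf1 at 78.5%. Psmb6 then had 77.8%, Psmb3 77.0% and Psmb7 70.4%, while Psmc1 had 25.5% and Psmd9 11.9%.

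The other 15 proteasome genes have no annotated retained-intron transcript, so their share cannot be other than 0 and is not counted here. By TPM, several of them lay largely in other non-coding models. Psmd14 held 70.9% ± 3.5 of its TPM in transcripts annotated as processed transcripts, Psma6 65.7% ± 7.5, Psmb1 51.7% ± 1.7 and Psme4 51.1% ± 2.1. By counts the same shares were 42.9% in Psmd14, 40.8% in Psma6, 50.5% in Psmb1 and only 7.13% in Psme4, where 92.9% of counts were coding. Psmc5 held 85.7, 61.1 and 82.3% of TPM in Psmc5-202, a model marked for nonsense-mediated decay, and 77.5% of counts. Coding transcripts held a median of 45.0% ± 5.2 of TPM over 42 genes, and 25 of 42 held under 50%, against 42.7% of protein-coding genes. The median over those genes was 56.8% ± 1.5.

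**Figure D3:**
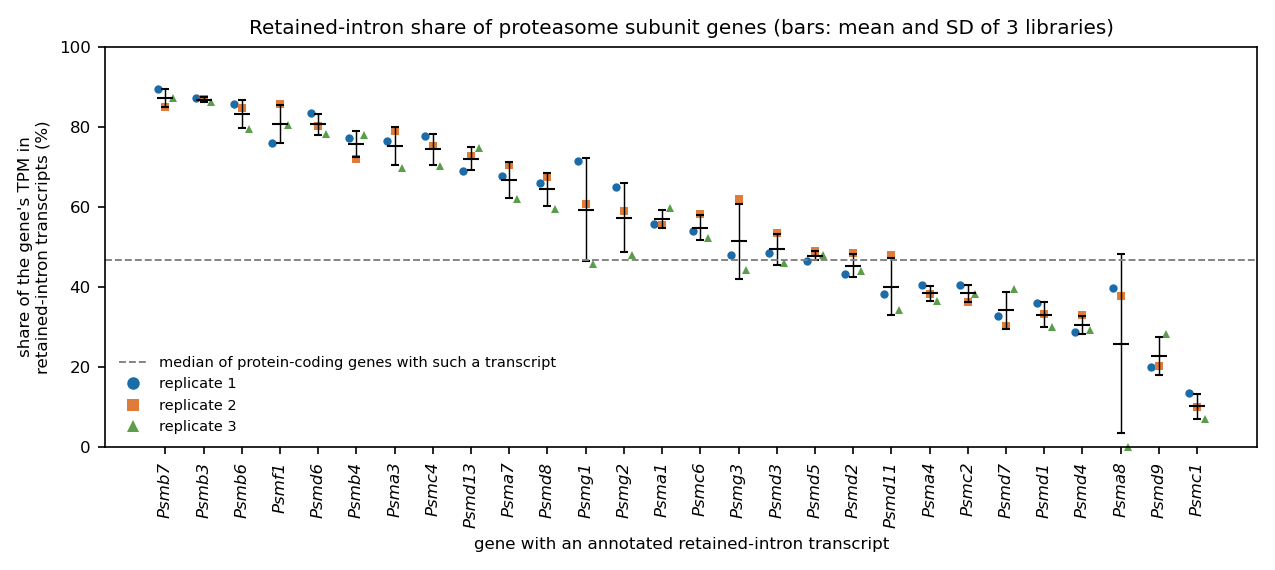
Share of TPM (%) in retained-intron transcripts for the 28 proteasome genes with such a transcript, in replicates 1, 2 and 3, with bars for the mean and SD and a dashed line at the median of 6584 protein-coding genes. Psmb7, Psmb3 and Psmb6 lie near the top, and Psma8 spreads from 0 to 39.9%.

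The 2 deposited quantifications, one from alignments and one directly from reads, put the genes in similar but not equal order, with rho of 0.91 over 41 genes in each library. The read-based TPM was higher in 34 of 41 genes, against 77.8% of detected protein-coding genes. The median log2 ratio of (TPM + 1) was 0.40, beside 0.33 over detected protein-coding genes. More than 2-fold higher were 3 of 41 (Psma2, Psma5 and Psmd14), against 14.7% of those genes.

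Psma2 moved most. It rose from 6.07, 5.96 and 5.78 TPM by alignment to 34.2 TPM in each library by reads, a log2 ratio of 2.34 ± 0.03. The read-based method gave 28.9 TPM to the shorter coding model Psma2-202, to which the alignments gave 0.00, 0.11 and 0.00 TPM. Psma2 was thus the lowest alpha gene in the alignment-based table, and it ranked 18 of 43 by reads against 34 of 43 by alignment. For Psma5 the values were 34.7, 27.2 and 24.5 TPM by reads, with 15.3 TPM on Psma5-202, which is marked for nonsense-mediated decay and had 0 TPM by alignment. Psmd14 had 124, 110.3 and 107 TPM by reads. For Psmg4, read-based values of 4.26, 4.46 and 3.95 TPM exceeded those by alignment by 1.41 ± 0.42 (log2).

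**Figure D4:**
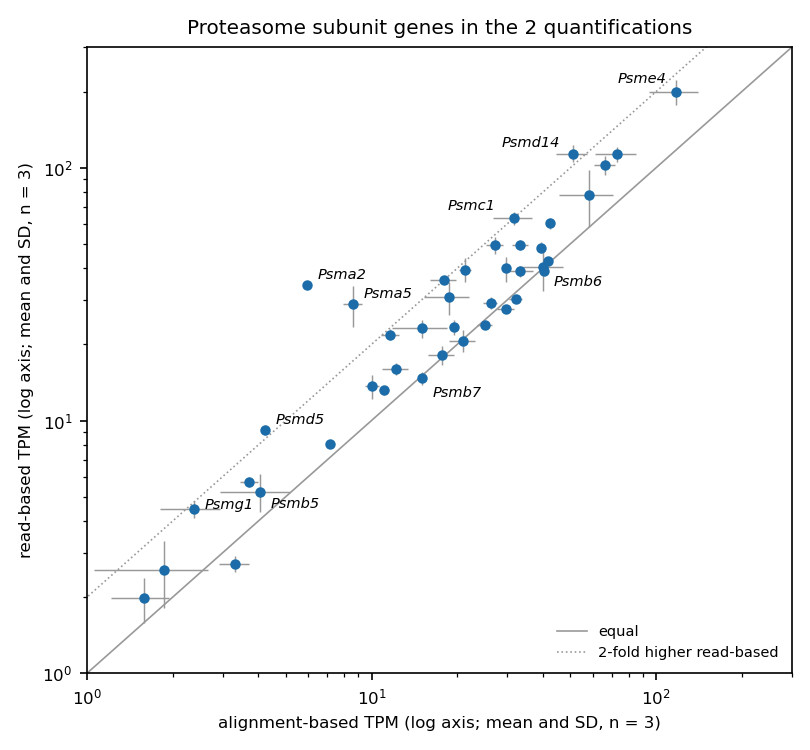
Read-based against alignment-based TPM (both log axes) of the 41 detected proteasome genes, as mean and SD of 3 libraries, with lines for equality and a 2-fold higher read-based value. Psma2 and Psma5 lie farthest above the line of equality, and Psmb6 and Psmb7 lie close to it; Psmd5 and Psme3 lie just above the 2-fold line in plain TPM but not after adding 1.

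The genes varied little between libraries. The median SD of log2(TPM + 1) over the 41 detected genes was 0.10, against 0.16 over detected protein-coding genes. These sets were not matched for level, with medians of 4.43 and 3.44, and the part of level in the spread was not tested. The median biological coefficient of variation from edgeR's fit over all 15868 genes with enough counts was 0.128. It was 0.157 over all of them and 0.146 over detected protein-coding genes. Genes of the COP9 signalosome and the CCT chaperonin, complexes described below, had 0.125 and 0.124, and immunoproteasome genes 0.147. A low spread was therefore not particular to the proteasome genes. Estimates of single genes are drawn strongly toward the common value with 3 libraries. Psmd2 (40.9, 40.3 and 39.6 TPM), Psmf1 and Psma2 had the smallest SD, of 0.02, 0.03 and 0.03. Psmd10, the chaperone also known as gankyrin, had the largest, of 0.41, with 2.69, 1.10 and 1.79 TPM from 41, 20 and 42 counts. Psmd8 and Psma6 followed with 0.32 each, and Psma6 had 16.4, 11.4 and 17.6 TPM. In these 3 genes replicate 2 was the lowest library.

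Replicate 1 held the highest TPM of 23 of 41 genes, against 36.8% of detected protein-coding genes. Replicate 2 held that of 6, against 29.5%, and replicate 3 that of 12, against 33.8%. The median gene deviated from the mean of the other libraries by 0.06, -0.07 and 0.00 (log2) in replicates 1, 2 and 3, and by 0.00, -0.03 and 0.03 over detected protein-coding genes. For replicate 1 the deviation of the proteasome genes was 0.10 in the read-based table and 0.13 with TPM rescaled without short and ribosomal features, against 0.00 and 0.07 over those genes. Counts scaled by TMM put 11 genes highest in replicate 2, where the share of detected protein-coding genes was also larger, at 35.7%. Replicate 1 still held the highest value of 20 of 41 genes with TMM, against 30.0% of detected protein-coding genes. With DESeq2 size factors it held that of 22, against 32.9%. Replicate 1 began from the most RNA and has the fewest counts, and the part of either was not tested.

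The COP9 signalosome, the CCT chaperonin and the interferon-inducible immunoproteasome gave a scale for these levels. The proteasome median exceeded that of the 10 COP9 signalosome genes, which encode a relative of the cap's lid, by 0.17 ± 0.17 (log2), no more than the spread, and by 0.12 ± 0.06 in the read-based table and 0.25 ± 0.15 without replicate 2, where it exceeded it. It lay below that of the 8 genes of the CCT chaperonin, a folding barrel, by -0.35, -0.34 and -0.28, a mean of -0.32 ± 0.04. The proteasome set also holds chaperones, regulators and the tissue-restricted pair, and among subunits alone the direction varied. The CCT median was 4.73, below the cap median of 4.93 and above the barrel median of 4.37. In the read-based table the cap and CCT medians were both 5.28. The median of the whole proteasome set lay below that of the 5 immunoproteasome genes by -1.41, -1.44 and -1.15, a mean of -1.33 ± 0.16. Psme2, a subunit of the interferon-inducible activator, was the highest of those 5, at 186, 106 and 131 TPM.

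Genes that work with the proteasome were detected as well. The cap subunits Adrm1 and Sem1, which the naming rule leaves out, had 41.2, 35.1 and 36.5 TPM and 25.2, 21.1 and 23.9 TPM. The deubiquitinase genes that work on the cap differed, with Usp14 at 55.1, 50.5 and 53.5 TPM and Uchl5 at 21.3, 17.3 and 14.7 TPM. In the read-based table Usp14 and Uchl5 lay closer, at 88.5 ± 4.7 and 61.1 ± 7.2 TPM. Ecpas, an adaptor of the particle, was the highest of the assembly and transport genes, at 118, 114 and 115 TPM, and Akirin2, which carries proteasomes into the nucleus, the lowest, at 17.8, 13.8 and 13.6 TPM. Nfe2l1 encodes Nrf1, the factor that raises proteasome genes when proteasome activity falls, and had 82.5, 52.3 and 62.0 TPM. The related Nfe2l2, which encodes the separate factor Nrf2, had 114, 75.5 and 125.5 TPM. Its mean was the highest of the genes listed with Nrf1, although Vcp lay above it in replicate 2. Vcp, the segregase that extracts Nrf1 from the endoplasmic reticulum, had 96.8, 83.2 and 88.5 TPM, and the protease gene Ddi2, which cuts Nrf1, was the lowest with 15.7, 19.9 and 19.6 TPM. Of the shuttle genes, Rad23b was the highest at 28.7, 26.6 and 24.4 TPM and Ubqln2 the lowest at 1.17, 1.07 and 1.2 TPM.

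Nrf1 and related factors bind antioxidant response elements, whose core TGACNNNGC was searched on both strands from 250 bases before to 50 after the start in RefSeq promoters (GRCm38.p6), which held 35 of the 43 genes. It was found in 6 of 35, against 14.0% of 27025 genes, a share near the background. The 6 matches are printed because they show how the element sits in each gene, on the gene's strand and with the match in capitals.
Psmb5, 47 bases before the start (chr14:54618024-54618052, minus strand): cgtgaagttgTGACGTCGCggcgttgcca
Psmb6, 9 bases before the start (chr11:70525338-70525366, plus strand): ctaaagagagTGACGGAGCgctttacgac
Psmc6, 227 bases before the start (chr14:45329587-45329615, plus strand): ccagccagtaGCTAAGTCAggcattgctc
Psmd9, 31 bases before the start (chr5:123228149-123228177, plus strand): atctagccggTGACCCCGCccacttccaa
Psmd12, 247 bases before the start (chr11:107479278-107479299, plus strand): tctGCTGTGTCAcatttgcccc
Psme4, 7 bases before the start (chr11:30771758-30771786, plus strand): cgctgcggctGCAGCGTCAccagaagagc

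The core reads forward in Psmb5, Psmb6 and Psmd9 and in reverse in Psmc6, Psmd12 and Psme4. In Psme4 the match runs across the RefSeq start. Starts are those of RefSeq, and GENCODE begins Psmb5, Psmc6, Psmd9, Psmd12 and Psme4 farther upstream. By GENCODE the matches of Psmd9 and Psme4 lie inside the gene. CCAAT was found in 13 of 35, against 41.1%, and GGAAGTG, a core bound by ETS factors, in 8 of 35, against 12.5%. A match is only a run of letters and not a bound site.

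Several of the genes share their start region or their exons with other genes. Shared exons bear on how far their counts are their own. A protein-coding gene on the other strand began within 1 kb upstream of 7 of 43, against 6.79% of protein-coding genes. The pairs and the bases between their starts were Psmc2 and Dnajc2 (32), Psma2 and Mrpl32 (75), Psmc5 and Ftsj3 (75), Psma7 and Ss18l1 (76), Psmb1 and Tbp (137), Psmd10 and Atg4a (179), and Psmg2 and Cep76 (263). Levels within a pair could differ widely: Psmd10 had 1.10 to 2.69 TPM where Atg4a had 17.0 to 19.5 TPM, and Psma7 had 30.1 to 37.1 TPM where Ss18l1 had 3.92 to 4.65 TPM. Psmc5 and Ftsj3 lay closer, at 10.6 to 11.5 and 12.3 to 14.9 TPM.

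Exons of 10 genes overlapped those of another gene, 8 of them on the opposite strand. Overlaps were not counted over all protein-coding genes, so neither number is called high or low. No source used here states the strand setting of the counts, and reads from the overlapping stretches may be split with error. Psmc3 shares 215 bases, 8.25% of its exons, with Slc39a13 at 51.7 to 64.2 TPM, more than the 25.0 to 27.8 TPM of Psmc3 itself. The highest coding transcript, Psmc3-202, holds 0 of these bases. Psmb7 shares 405 bases with Nek6, all within the coding model Psmb7-201 of 1160 bases and none within Psmb7-202, and Nek6 had 5.54 to 6.71 TPM. Psmd13 and Sirt3 share 342 bases and Psmd1 and Htr2b 252, none of them in the highest coding transcript of either proteasome gene, and Psma4, Psma5, Psmd3 and Psmd9 overlap genes at 3.37 TPM or less. On the same strand, Psmb5, Psmd1 and Psmg3 overlap Mir686, Gm21972 and Gm26938, which had at most 0.76 TPM.

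Near-identical pseudogene copies, with at least 95% identity over at least 80% of the copy, were found for 8 genes, 13 copies in all. Copies of other protein-coding genes were not searched, so neither number is called high or low. Gm6542, a copy of Psma4, was the only one with more than 24 counts in any library, with 83.5, 84.8 and 119 counts beside 357, 385 and 485 of Psma4. Gm13835, identical to Psma3 over 665 bases, had 3.89, 16.3 and 24.0 counts beside 854, 907 and 1085. The 11 other copies, of Psma3, Psma5, Psmb3, Psmb5, Psmc1, Psmd11 and Psmd2, had at most 2.49 counts. The deposited posterior SD of the count was under 10% of the count for all genes with counts, and the levels of Psma3 and Psma4 remain uncertain by the counts of their copies.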

How the data were processed

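Chromatin-fraction RNA was measured in 1 group of 3 libraries, numbered as in the labels. The gene and alignment-based transcript tables hold the authors' expected counts and TPM, derived from transcriptome alignments on mm10 with GENCODE M21, per the file headers and the deposited README files. The read-based transcript table holds estimated counts and TPM, as deposited, and was summed per gene here. The deposited posterior SD of each count was used as a check only. Aligner, quantifier, versions and strand setting are not given in the sources used here. Rows that name no gene held 0.228 to 1.24% of counts and were left out.

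Where no table is named, TPM comes from the alignment-based genes. Levels used log2(TPM + 1), which understates differences of low genes, and ± is the SD over 3 libraries. TPM scales each library to 1 total, so abundant or very short RNAs lower all others; a rescaled TPM leaves out features under 200 nt and 3 ribosomal loci. Detection required 10 or more expected counts on average, and precision rests on the counts printed. Expected counts were rounded for edgeR 4.0.16 (TMM, intercept only) and DESeq2 1.42.0 (R 4.3.3). Other steps used Python 3.11.15, numpy 2.4.6, pandas 2.3.3, scipy 1.17.1, matplotlib 3.10.9 and BLAST 2.17.0. On simulated counts of the 3 libraries, coefficients of variation of 0.1, 0.2 and 0.4 came back as 0.0995, 0.199 and 0.398 (15689, 15659 and 15551 genes), and a set of 200 genes simulated at 0.5 among others at 0.1 came back at a median of 0.169. Coordinates are 1-based. Motifs were searched in RefSeq promoters, matched by symbol. Values in every library are given for the highest and lowest gene of each role, the catalytic genes and their partners, undetected genes, the largest and smallest SD, the largest differences between tables, the highest retained-intron shares, and genes with overlaps or copies where counts bear on them. Of 76 listed symbols, 74 had a gene. The members and lists were chosen with earlier results of these data known. Alternatives covered the table, pseudocount, scaling, filters, motif and leaving out each replicate. Counting coding transcripts alone, and retained-intron shares by counts, were added after seeing the data.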

Additional observations from a re-analysis of the deposited data

How the results depend on the processing

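Of 94 alternative values for 16 results, 2 reversed and 12 moved beyond the spread between libraries or, for counts and spreads, beyond 1.5 times. The 3 catalytic pairs were judged by direction and test alone, and in the read-based table Psmb5 minus Psmb8 was -2.26 and Psmb7 minus Psmb10 -2.21, shifts beyond their spread. The 2 reversals were Psmb5 minus Psmb8 with coding transcripts only (0.83) and Psmb6 minus Psmb9 without replicate 1 (0.078, in a range of -0.29 to 0.078 over the libraries left out). The read-based table moved the median level to 4.87, the barrel minus the cap to -0.23, the genes minus the CCT chaperonin to -0.41 and minus the immunoproteasome to -0.87. It put 11 genes highest in replicate 2 and 6 in replicate 3, against 32.9 and 30.0% of detected protein-coding genes. Rescaled TPM moved the median level to 5.28, while the median of detected protein-coding genes rose by 0.84. Coding transcripts only gave a median level of 3.15 and a barrel minus cap of -0.90. TMM scaling and DESeq2 size factors each put 11 genes highest in replicate 2, against 35.7 and 36.3% of those genes. The looser motif TGANNNNGC was found in 20 genes in place of 6, against 45.0% of all genes. The cause of these changes was not tested. No replicate block between groups could be fitted because there is only 1 group. With 3 libraries the exact sign-flip test cannot give p under 0.25, and Psma8, Psmb5, Psmb11, Psmd10, Psmg1, Psmg2 and Psmg4 rest on fewer than 70 counts in each library.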
